A study of Mus musculus with 16 samples.

Results

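The comparison described here set hippocampus RNA of chronic-stressed male mice against that of non-stressed male mice, gene by gene, across the autosomes. Its members are the 51130 autosomal genes, of 55359 genes in all, that the deposited count table lists, and 16955 of them passed the filter on low values and were tested. Each gene was also marked by its position: 16460 autosomal genes, 7389 of them tested, have a span that overlaps a gene on the other DNA strand. A further 3969 tested genes have no such overlap but lie within 5 kb of a gene on the other strand, and 5597 have none within 5 kb.

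All mice were of the strain C57BL/6JNarl, and the labels name the tissue as brain while the series text names the hippocampus. There were 4 libraries of non-stressed males, each a pool of 3 animals, and 4 libraries of chronic-stressed males, pools of 2, 2, 1 and 2 animals. The type and duration of the stress, the age of the mice and whether pools shared animals are not given in the sources used here, so p-values measure the spread between these libraries. The 8 female libraries of the series, all pools of 3, entered the filter, the scaling and the model that estimates spread. They are otherwise used for levels outside the comparison and to set the sexes side by side. Library totals ran from 15.2 to 19.5 M counts in non-stressed and from 18.6 to 32.5 M in stressed males (M stands for 1000000 counts). The dentate granule cell gene C1ql2 stood at 50.2 FPKM (counts per 1000 bases of exon and 1000000 counts) and the pyramidal cell gene Pcp4 at 133 FPKM in non-stressed males, so markers of the hippocampus were present. Bulk RNA cannot tell fewer cells of a type apart from less RNA per cell.

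As background, the hippocampus is a main brain target of the glucocorticoids that the adrenal gland releases under stress. These hormones enter cells, bind the receptors encoded by Nr3c1 and Nr3c2, and turn on genes such as Fkbp5 and Zbtb16. Where genes lie on opposite strands of the same DNA, a read can be given to the right gene only if the library records strand and the counting uses it. Neither the strand setting nor the annotation release is given in the sources used here. Whether libraries of both conditions were made and counted alike is not given either, so a difference in library making or counting cannot be told apart from the effect of stress in any fold change below.

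Chronic stress in males went with a change at 6721 autosomal genes, 39.6% of those tested, at an adjusted p under 0.05 (edgeR quasi-likelihood test, Benjamini-Hochberg adjustment over all tested genes). Of these, 3128 were higher in stressed males (18.4% of genes tested) and 3593 lower (21.2%). The CPM values (counts per 1000000) of the groups did not overlap for 7625 genes (45.0%). A change of over 4-fold was called at 824 genes (4.86%), 248 higher and 576 lower. The median log2 fold change over all tested genes was -0.03. On a TPM scale, where FPKM is rescaled to a fixed sum, that median moved to 0.19 and 75.3% of calls were rises, against 46.5% here, so values below are read against it. Without non-stressed female libraries 1 and 4, whose group had a median SD of 0.285 on the log2 CPM scale against 0.0955 to 0.163 in the other 3 groups, 8962 autosomal genes passed. On the male libraries alone it was 8340.

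The sequences of a few start sites are shown where the results turn on them, from RefSeq windows on the build GRCm38.p6, which differs from the build of the count table (GRCm39). They show how 3 ribosomal protein genes that fell begin. Mammalian ribosomal protein mRNAs are known to start with a run of pyrimidines, the TOP motif, through which the growth pathway kinase mTOR controls their translation. Each line gives 30 bases before and 30 bases from the annotated start on the gene's own strand. Capitals mark the longest run of C or T between 10 bases before and 30 after the start. The marked run spans the annotated start in Rpl38 but begins after it in Rpl13a and Rpl11. In Rpl11 it lies well inside the transcript and reaches the end of the printed stretch.
Rpl11 (chr4:136053364-136053423, minus strand): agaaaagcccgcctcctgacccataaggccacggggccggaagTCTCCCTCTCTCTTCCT
Rpl13a (chr7:45128716-45128775, minus strand): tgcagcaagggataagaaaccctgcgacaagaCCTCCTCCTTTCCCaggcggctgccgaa
Rpl38 (chr11:114668550-114668609, plus strand): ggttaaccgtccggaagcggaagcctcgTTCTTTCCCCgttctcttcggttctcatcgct

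A run of at least 8 such bases in that stretch was found for 27 of the 53 ribosomal protein genes on the list that have a window. It was found for 8 of 59 nuclear genes of oxidative phosphorylation and for 16.4% of the 27025 genes with a window. These are descriptions of letters and carry no test.

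Genes with no gene on the other strand within 5 kb are described first. In that class 2010 of 5597 genes passed, 35.9% against 39.6% over all, with 976 higher and 1034 lower. Over 4-fold there were 202. Rises and falls are named here by a fixed rule of size that also required CPM groups that do not overlap. Separation of the groups of these genes thus follows from the choice. The rises include receptor subunits and signalling proteins. Gabrb2, the beta2 subunit of the GABA-A receptor for inhibitory transmission (GRCm39 chromosome 11, 42310584 to 42519855), stood at 24.1, 24.7, 22.4 and 24.9 CPM in non-stressed libraries 1 to 4. In stressed libraries 1 to 4 it stood at 109.9, 96.4, 104.1 and 86.6 CPM. All 4 stressed libraries lay far above all 4 non-stressed ones, a log2 fold change of 2.06 ± 0.48 (SE, n = 4 per group; adjusted p = 0.00307). DESeq2 gave 2.08 and no adjusted p.

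Chrna7, which encodes the alpha7 subunit of a nicotinic acetylcholine receptor, stood at 3.86, 4.95, 4.92 and 6.13 CPM without stress. The stressed libraries gave 22.4, 19.8, 25.2 and 22.2 CPM, a log2 fold change of 2.18 ± 0.34 (adjusted p = 0.000111). The groups were well apart. Zbtb16 (PLZF), a zinc finger transcription factor that glucocorticoids induce, rose from 14.7, 15.3, 20.3 and 21.7 CPM to 57.6, 57.3, 60.6 and 54.7 CPM. Its log2 fold change was 1.68 ± 0.36 (adjusted p = 0.0014), and the stressed libraries agreed closely with each other. Ksr2, a scaffold of the Ras to MAP kinase pathway, rose from a mean of 22.2 ± 3.60 to 74.9 ± 2.17 CPM (SD, n = 4; log2 fold change 1.76 ± 0.23, adjusted p = 1.87e-05).

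Other rises in this class had log2 fold changes from 1.72 to 2.30. They were Shc3, a neuronal adaptor of receptor tyrosine kinases (2.03 ± 0.35), Syt10, a synaptotagmin calcium sensor of vesicle release (2.06 ± 0.26), and Faxc (2.12 ± 0.39). Klhl11, an adaptor of a ubiquitin ligase (2.30 ± 0.34), Pm20d2 (2.29 ± 0.45) and Nt5c1a, a nucleotidase that makes adenosine (1.82 ± 0.29), also rose. The zinc finger genes that rose were Zkscan16 (2.29 ± 0.44), Zfp551 (2.07 ± 0.36) and Zfp382 (1.88 ± 0.27). Nscme3l (1.72 ± 0.37) overlaps Snx32 on its own strand, so its count depends on how shared reads were assigned. Among genes of this class that met the naming rule, the alpha globin gene Hba-a2 had the highest fold (2.68 ± 0.49, adjusted p = 0.000412). It went from 0.981, 2.64, 4.51 and 1.97 CPM to 9.94, 35.3, 10 and 11 CPM. Stressed library 2 stood far above the rest, and Hba-a1 is a near-identical copy, so the level is uncertain.

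The falls in the same class included ribosomal protein genes and a respiratory chain gene. Rpl11, a protein of the large ribosomal subunit (GRCm39 chromosome 4, 135755576 to 135780739), stood at 116, 113, 107 and 106 CPM without stress and at 35.2, 35.9, 32.1 and 30.7 CPM with it. The groups did not come near each other, and the log2 fold change was -1.71 ± 0.13 (adjusted p = 3.95e-08). Rpl38, a small protein of the same subunit, fell from a mean of 46.3 ± 6.30 to 13.2 ± 1.32 CPM (-1.80 ± 0.23). Of the small subunit, Rps26 had a log2 fold change of -1.32 ± 0.16, Rps7 of -1.29 ± 0.10 and the related gene Rps27l of -1.26 ± 0.18. Ndufs5, a subunit of complex I of the respiratory chain, fell from a mean of 78.3 ± 4.79 to 29.3 ± 2.32 CPM (-1.40 ± 0.17, adjusted p = 1.35e-05). Polr2k, a small subunit shared by the nuclear RNA polymerases, had a log2 fold change of -1.48 ± 0.19.

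Other kinds of gene fell as well. Among the genes of this class that met the rule (protein coding, not clone-named, mean FPKM of 1 or more, groups separate) Ccdc125 fell most. It went from 4.23, 4.36, 4.56 and 4.89 CPM to 1.02, 0.572, 0.277 and 0.577 CPM (log2 fold change -2.94 ± 0.30, adjusted p = 1.59e-06). Megf11, a large cell surface protein with EGF-like repeats, fell although it has 11181 bases of exon, from a mean of 38.1 ± 1.59 to 15.7 ± 0.748 CPM (-1.27 ± 0.14). Cartpt, the precursor of the CART neuropeptide, had a log2 fold change of -1.55 ± 0.34, Mia of -1.45 ± 0.32 and the lens crystallin gene Crygn of -1.24 ± 0.35, which did not pass with the length trend removed (-0.76). Rpl9-ps6 (-1.66 ± 0.12), Psme2b (-1.32 ± 0.13) and Eno1b (-1.49 ± 0.19) have near-identical parent genes, so reads could be split between copies.

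**Figure D1:**
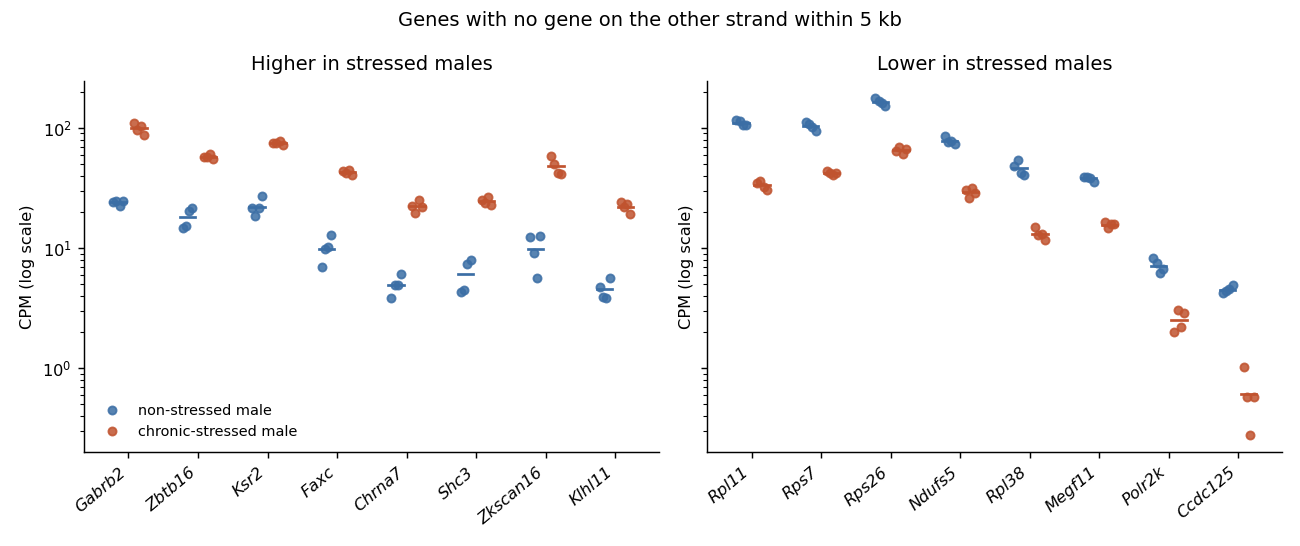
CPM on a log axis for 16 genes with no gene on the other strand within 5 kb; points are the 4 libraries of each male group and bars their means. The groups are apart in each of the 16 genes because the naming rule required it. Gabrb2 is near 100 against 24 CPM and Rpl11 near 33 against 111 CPM.

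Cytosolic ribosomal protein genes, which encode the protein part of the ribosome, moved down together. Of 74 autosomal members tested, 58 fell, 2 rose and 14 did not pass, against 21.2% of all genes that fell. Their median log2 fold change was -0.71, and -0.48 on the TPM scale. Summed over the list, non-stressed males held 9551 to 10650.0 CPM and stressed males 5781 to 5966 CPM. Rpl13a stood at 232, 223, 234 and 208 CPM without stress and at 55.5, 60.8, 58.0 and 61.8 CPM with it, a log2 fold change of -1.91 ± 0.11 (adjusted p = 2.82e-09). The 2 that rose were Rpl5 (0.88 ± 0.10), which overlaps Dipk1a on the other strand, and Rps16 (0.42 ± 0.14), both named after their values were seen. Rps16 did not pass without non-stressed library 1 or 4 or stressed library 3 or 4 (0.34 to 0.41). Among the 53 members with no overlap, 41 fell and 1 rose.

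Nuclear genes of oxidative phosphorylation, the respiratory chain and ATP synthase, moved the same way. Of 71 tested, 56 were lower, 0 higher and 15 did not pass, against 21.2% lower and 18.4% higher over all genes. The median was -0.54, and -0.31 on the TPM scale. Cox5b, a subunit of cytochrome c oxidase, stood at 246, 266, 246 and 226 CPM without stress and at 122, 122, 125 and 121 CPM with it (log2 fold change -0.99 ± 0.13, adjusted p = 2.49e-05). Cox7c of the same complex had -1.14 ± 0.14 and Uqcr10 of complex III -0.84 ± 0.13. Replication-dependent histone genes had 6 of 11 tested members lower and 0 higher, with H4c8 at -1.81 ± 0.30, H4c9 at -1.19 ± 0.30, H1f2 at -0.74 ± 0.15 and H2bc4 at -0.53 ± 0.15. Genes on these 3 lists are short, with median exonic lengths of 1806, 1801 and 1630.0 bases against 3627 over all tested genes. Once the trend of fold change on exonic length was removed, 35 ribosomal protein genes fell and 2 rose. Of oxidative phosphorylation genes 14 fell and 3 rose, and of histone genes 2 fell and 1 rose. In that fit 2370 of all 16955 genes tested fell and 2354 rose. The shares of oxidative phosphorylation and histone genes that fell there lie not far above that of all genes. H4c8 still passed (-1.36), and H4c9, H1f2 and H2bc4 did not.

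Of the stress hormone genes, the 19 glucocorticoid-induced genes tested had 4 higher and 3 lower, against 18.4% and 21.2% of all genes. Another 12 did not pass, and the median was 0.11 (0.34 on the TPM scale). These counts depend on the scaling, with 7 higher and 1 lower once the length trend was removed and 11 and 2 on the TPM scale. Fkbp5, a co-chaperone that dampens the glucocorticoid receptor and is itself induced by it, stood at 41.8, 37.2, 44.4 and 48.0 CPM without stress and at 56.2, 53.7, 67.5 and 62.0 CPM with it. The groups did not overlap and the log2 fold change was 0.50 ± 0.10 (adjusted p = 0.00102), but with the length trend removed it was 0.21 and did not pass. Plin4, a lipid droplet protein, rose by 1.32 ± 0.23 and overlaps Hdgfl2. Ddit4, an inhibitor of mTOR, fell (-0.56 ± 0.08), though with the length trend removed it was -0.18 and did not pass. The phosphatase gene Dusp1 fell by 0.68 ± 0.13 and overlaps Ergic1. Without non-stressed female libraries 1 and 4, 9 members rose and 4 fell.

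Receptors, their chaperones and the CRH system had 1 of 12 tested genes higher and 5 lower, against 18.4% and 21.2% of all genes. The median was -0.27, and -0.04 on the TPM scale. The glucocorticoid receptor gene Nr3c1 stood at 89.9, 79.2, 76.4 and 78.6 CPM without stress and at 100, 98.7, 85.6 and 89.3 CPM with it. These groups overlapped, and the log2 fold change of 0.22 ± 0.07 (adjusted p = 0.0216) did not pass when non-stressed library 2, 3 or 4 or stressed library 1 or 2 was left out (0.19 to 0.21). Without the length trend it was 0.00. The mineralocorticoid receptor gene Nr3c2 (0.14 ± 0.10, adjusted p = 0.256), the kinase gene Sgk1 (0.16 ± 0.09, adjusted p = 0.141) and the CRH receptor gene Crhr1 (-0.05 ± 0.12, adjusted p = 0.762) did not pass. Sgk1 did pass without non-stressed female libraries 1 and 4 (0.19, adjusted p = 0.021). The receptor chaperones Fkbp4 (-0.49 ± 0.09), Stip1 (-0.42 ± 0.06) and Hsp90aa1 (-0.37 ± 0.11) fell, and of these Fkbp4 alone still passed with the length trend removed (-0.27).

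Immediate early genes, which neurons switch on within minutes of firing, had 9 of 19 tested members lower and 1 higher, against 21.2% and 18.4% of all genes (median -0.38). On the TPM scale 4 were lower and 2 higher (median -0.14). Fos, a subunit of the AP-1 transcription factor, stood at 11.2, 10.1, 11.8 and 9.56 CPM without stress and at 6.02, 6.71, 3.51 and 4.04 CPM with it. All stressed libraries were lower, and the log2 fold change was -1.08 ± 0.22 (adjusted p = 0.00122). Npas4, a transcription factor specific to neuronal activity, fell from a mean of 24.7 ± 2.08 to 12.96 ± 3.37 CPM (-0.93 ± 0.18), with stressed library 2 above the other stressed libraries at 17.8 CPM. Ier5 had -0.36 ± 0.09, and the AP-1 gene Fosl2 was the member that rose (0.62 ± 0.14). With the length trend removed 5 members fell and 0 rose, Fos (-0.80) and Npas4 (-0.89) among them, while Ier5 (-0.21) and Fosl2 (0.32) did not pass.

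Neurotrophins and their receptors split, with 3 of 8 tested genes higher and 3 lower, against 18.4% and 21.2% of all genes. The receptors Ntrk2 (0.36 ± 0.10) and Ntrk3 (0.54 ± 0.14) rose, while Vgf, a secreted neuropeptide precursor, fell from a mean of 163 ± 6.08 to 109.9 ± 9.99 CPM (-0.56 ± 0.08). The neurotrophin gene Ntf3 fell (-0.61 ± 0.19), a call lost without non-stressed library 1 or stressed library 2 (-0.48 each). Fitted without the length trend, Ntrk2 was at -0.15, Ntrk3 at -0.11 and Ntf3 at -0.22, none of which passed, and Vgf passed at -0.37. Bdnf, a neurotrophin tied to synaptic plasticity, stood at 56.8, 43.4, 37.2 and 54.0 CPM without stress and at 37.6, 35.3, 39.8 and 37.8 CPM with it, with overlapping groups. Its log2 fold change was -0.33 ± 0.13 (adjusted p = 0.0445), and leaving out any one of 6 of the 8 male libraries, non-stressed 1 or 4 or any stressed one, lost the call (-0.37 to -0.24, adjusted p from 0.051 to 0.152). It did not pass with DESeq2 either (-0.31, adjusted p = 0.0537).

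Core clock genes, which keep the daily rhythm of transcription, were mostly higher. Of 19 tested, 11 rose, 2 fell and 6 did not pass, against 18.4% of all genes that rose (median 0.38, and 0.58 on the TPM scale). Per3 stood at 40.2, 37.2, 37.4 and 41.1 CPM without stress and at 79.3, 82.4, 79.0 and 79.2 CPM with it with little spread, and the log2 fold change was 1.05 ± 0.08 (adjusted p = 7.34e-08). Per2, a partner of it in the repressor complex, rose from a mean of 26.1 ± 1.42 to 45.4 ± 1.31 CPM (0.81 ± 0.12). The repressor gene Nr1d2 (0.70 ± 0.10) and the activator gene Clock (0.58 ± 0.07) rose too. The 2 that fell were Nfil3, a repressor that binds the same sites as Dbp and Tef (-0.61 ± 0.12), and the nuclear receptor gene Rorb (-0.35 ± 0.09). Without the length trend 8 rose and 2 fell, with Per3 at 0.76 and Per2 at 0.70, while Clock (0.16) and Nfil3 did not pass. The hour at which tissue was taken is not given in the sources used here, so its part in the result was not tested.

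Clock and its partner are known to bind the E-box CACGTG. That motif, which reads the same on both strands, was found in the 300-base RefSeq windows (GRCm38.p6) of 5 of 17 clock genes and in 8.09% of the 27025 genes with a window. Of the 11 that rose, 9 have a window and 2 hold the motif: Ciart, a repressor of the clock (0.58 ± 0.12), and Tef, an activator of its output (0.49 ± 0.06). They are printed with the motif in capitals, and a match is no evidence of binding.
Ciart (chr3:95882322-95882361, minus strand): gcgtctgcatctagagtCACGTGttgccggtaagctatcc
Tef (chr15:81802529-81802568, plus strand): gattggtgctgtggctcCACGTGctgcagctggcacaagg

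Genes of the synapse are long, with median exonic lengths of 6686 to 9236 bases over the 4 lists. Over all genes 18.4% were higher and 21.2% lower, and over genes of more than 6 kb 43.8% were higher and 4.85% lower. Ionotropic glutamate receptor genes had 5 of 16 higher and 0 lower, postsynaptic scaffold genes 3 of 15 and 0, synaptic vesicle and release genes 8 of 26 and 3, and GABA receptor genes 4 of 13 and 2. The scaffold share of higher genes is close to that of all genes, and all 4 lists lie below the share of genes of more than 6 kb. Their median log2 fold changes were 0.15, 0.24, 0.14 and 0.02. Grin2b, an NMDA receptor subunit, stood at 318, 299.6, 325 and 379 CPM without stress and at 641, 630.0, 716 and 652 CPM with it, with every stressed library far above every control (log2 fold change 1.01 ± 0.17, adjusted p = 0.000241). The kainate receptor gene Grik3 rose by 0.83 ± 0.22 and the GABA-A subunit gene Gabrg3 by 0.63 ± 0.08. The NMDA receptor gene Grin3a (0.31 ± 0.10) and the AMPA receptor gene Gria2 (0.24 ± 0.09) passed less firmly. Grin3a was lost without non-stressed or stressed library 3 (0.29 to 0.30), and Gria2 without any one of 6 libraries, all but non-stressed 1 and 4 (0.18 to 0.27). The GABA-A subunit genes Gabra2 (-0.44 ± 0.14) and Gabrd (-0.30 ± 0.10) fell, the first lost without non-stressed library 1 (-0.33) and the second without non-stressed library 3 or stressed library 1 (-0.25 to -0.20). Of the presynaptic scaffolds, Bsn rose by 0.90 ± 0.20 and Pclo by 0.74 ± 0.10, and Syn3 by 1.35 ± 0.32. Stx1a, a SNARE protein of vesicle fusion with 2666 bases of exon, fell (-0.36 ± 0.09). Postsynaptic Dlgap2 (1.12 ± 0.26), Homer2 (0.78 ± 0.09) and Shank2 (0.73 ± 0.17) rose. Fitted without the length trend, the glutamate receptor list had 2 higher and 4 lower, the scaffold list 4 and 3, the vesicle list 6 and 1 and the GABA list 2 and 2. Grin2b (0.42), Dlgap2 (1.00) and Homer2 (0.40) still passed, and Gria2 (-0.21), Grin3a (-0.06), Gabrd (-0.09) and Stx1a (-0.12) did not.

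Folding genes of the endoplasmic reticulum had 9 of 20 lower and 1 higher, against 21.2% and 18.4% of all genes. The median was -0.22, and 0.02 on the TPM scale, where 6 were higher and 3 lower. The chaperone gene Calr fell (-0.54 ± 0.08) and the stress sensor gene Atf6 rose (0.53 ± 0.11). Xbp1, a transcription factor of the unfolded protein response, was at -0.24 ± 0.07 and lost its call without non-stressed library 2 (-0.19). Sdf2l1, of the same response, was at -0.47 ± 0.17 and lost it without any one of 5 libraries (-0.50 to -0.31). Cholesterol synthesis genes had 3 of 21 higher and 2 lower, both below the shares of all genes. Tm7sf2, a reductase of the pathway, fell (-0.44 ± 0.08), as did Fdps (-0.50 ± 0.16), whose call was lost without non-stressed library 2 or stressed library 1 or 3 (-0.49 to -0.48). Nuclear noncoding RNAs had 4 of 15 higher and 3 lower, against 18.4% and 21.2% of all genes. Meg3, an imprinted RNA of 18089 exonic bases, rose from 3761 to 3926 CPM without stress to 4861 to 5272 CPM with it (0.42 ± 0.10), and with the length trend removed it was -0.08. Pvt1 rose by 0.36 ± 0.09, and Snhg11, a small nucleolar RNA host, had -0.23 ± 0.06. Snhg1 (-0.48 ± 0.18) lost its call whichever of the 8 male libraries was left out (adjusted p from 0.0556 to 0.116).

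Counts for markers of the cell types in and around the hippocampus depend on the scaling, so they are given for each. On the TPM scale, higher and lower members were 6 and 1 for granule, 7 and 1 for pyramidal, 7 and 3 for interneuron, 7 and 3 for astrocyte, 3 and 1 for oligodendrocyte, 2 and 1 for microglia and 9 and 3 for endothelial and mural genes. Once the length trend was removed they were 3 and 2, 3 and 1, 2 and 0, 0 and 4, 1 and 2, 0 and 1, and 2 and 1, in the same order. Over all 16955 genes tested, 5863 were higher and 1925 lower on the TPM scale, and 2354 and 2370 without the length trend. The counts that follow, here and for the other cell types and tissues below, are with TMM scaling unless another is named. With TMM 18.4% of all genes were higher and 21.2% lower, and the higher shares of pyramidal and astrocyte genes lie close to the first. Dentate granule neuron genes had 4 of 10 higher, such as Dsp, a desmosome protein (1.20 ± 0.14), and 3 lower, such as the calcium buffer gene Calb1 (-0.61 ± 0.15) and C1ql2 (-0.48 ± 0.12). The enzyme gene Tdo2 fell too (-0.55 ± 0.14). CA1 to CA3 pyramidal neuron genes had 3 of 17 higher and 5 lower, with Pcp4 at -0.77 ± 0.17 and Necab2 at -0.33 ± 0.10, which did not pass without non-stressed library 3 (-0.25). Nectin3 (0.23 ± 0.08) and Wfs1 (0.34 ± 0.12) passed higher with overlapping groups, and lost that without any one of 4 (0.19 to 0.22) and 5 libraries (0.28 to 0.35). Interneuron genes had 4 of 16 higher and 5 lower. The neuropeptide genes Cck (-0.78 ± 0.16) and Npy (-0.54 ± 0.15) and the calcium buffer gene Pvalb (-0.80 ± 0.22) fell, and the neuregulin receptor gene Erbb4, with 12355 bases of exon, rose (0.63 ± 0.10). Of these neuronal genes Dsp, Calb1, Tdo2, Wfs1 and Erbb4 passed with the length trend removed, and C1ql2, Pcp4, Necab2, Nectin3, Cck, Npy and Pvalb did not. Summed over each of these 3 lists, the CPM ranges of the groups overlapped, from 506 to 649 against 608 to 660 for granule, 1751 to 1836 against 1602 to 1860.0 for pyramidal and 1930.0 to 2060.0 against 1888 to 1997 for interneuron genes.

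Astrocyte genes had 3 of 18 higher and 6 lower, with the lipid carrier gene Apoe at -0.57 ± 0.10, the radial glia gene Fabp7 at -1.10 ± 0.24 the glial factor gene Sox9 at -0.48 ± 0.07 and the bicarbonate transporter gene Slc4a4 at 0.43 ± 0.07. Gfap, the intermediate filament of astrocytes, stood at 419, 457, 435 and 456 CPM without stress and at 350.2, 365, 379 and 353 CPM with it. The groups did not overlap (-0.27 ± 0.09, adjusted p = 0.0286), but leaving out non-stressed library 2 or 4 or stressed library 1, 2 or 4 lost the call (-0.27 to -0.26). It did not pass on the TPM scale (-0.05), without the filter (-0.24) or with the length trend removed (-0.25). Oligodendrocyte genes had 2 of 19 higher and 6 lower, with the myelin gene Opalin at -0.74 ± 0.12 and the precursor cell gene Cspg4 at 0.70 ± 0.22, lost without non-stressed library 1 or 2 (0.61 to 0.63). Cldn11 (-0.33 ± 0.10) was lost without non-stressed library 2 or 3 or stressed library 3 (-0.30 to -0.24), and Olig2 (-0.33 ± 0.12) without any one of the 8 (adjusted p from 0.0541 to 0.0716). Microglia genes had 6 of 18 lower and 0 higher, with Tmem119 at -0.34 ± 0.10, the complement gene C1qa at -0.58 ± 0.18, Aif1 at -0.59 ± 0.18 and the protease gene Ctss at -0.56 ± 0.18, which did not pass without non-stressed library 1 (-0.47). Fitted without the length trend, 1 microglia gene fell, and it was none of these 4. Endothelial and mural genes had 5 of 19 higher and 3 lower, the latter including the tight junction gene Cldn5 (-0.77 ± 0.20), Ly6a (-0.78 ± 0.15) and Ly6c1 (-0.67 ± 0.14), and the growth factor receptor gene Kdr rose (0.62 ± 0.14). Sox9, Apoe, Fabp7 and Opalin passed with the length trend removed, and the other glial and vascular genes named did not.

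Choroid plexus genes, a sign of tissue next to the hippocampus, had 0 of 12 members that passed with edgeR on all libraries, and summed to 3544 to 10300.0 CPM in non-stressed and 2446 to 8491 CPM in stressed libraries. Their median log2 fold change was 0.56. Members passed, all of them higher, on the male libraries alone (3), with no filter, with limma on TPM, and without non-stressed female libraries 1 and 4, non-stressed male library 2 or stressed male library 3 (2 each), and with the length trend removed (1). Meningeal fibroblast genes had 2 of 13 higher, Col1a2 (0.63 ± 0.20) and Slc22a6 (0.74 ± 0.26), lost without any one of 4 (0.53 to 0.58) and 5 libraries (0.63 to 0.77), and their sums ran from 700.4 to 1066 against 763 to 1280.0 CPM. Blood genes, with 1 of 4 higher, ran from 59.3 to 118 against 75.4 to 324 CPM. Thalamus and cortex genes had 3 of 11 lower, Rorb, Fezf2 (-0.45 ± 0.12) and Lamp5 (-0.39 ± 0.13), the last lost without any one of 4 libraries (-0.38 to -0.31), with sums from 262 to 334 against 234 to 328 CPM. The part of these tissues in the other results was not tested.

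**Figure D2:**
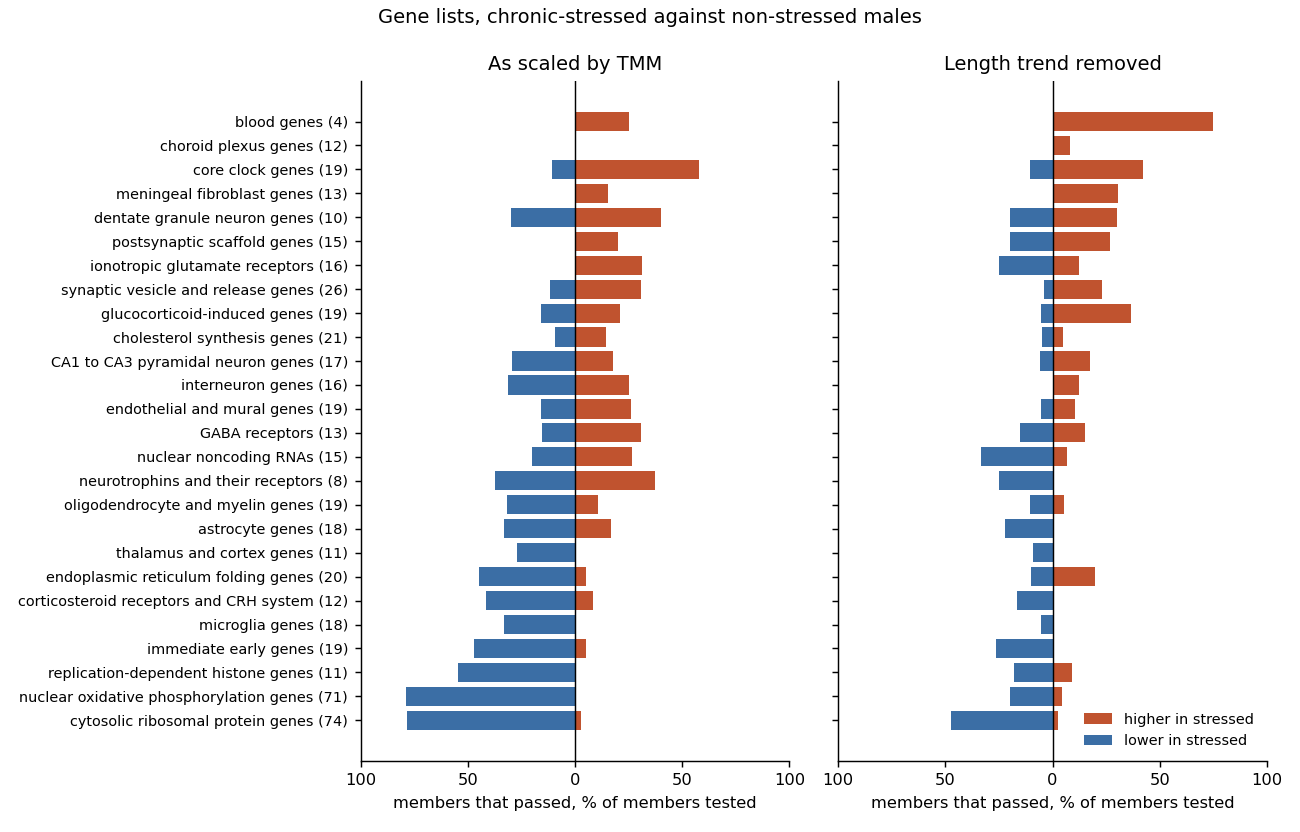
Share of tested members of each list that passed, higher (right) or lower (left) in stressed males, with the number tested in brackets; left panel with TMM scaling, right panel with the trend on exonic length removed. Ribosomal protein genes go from 58 lower to 35 and oxidative phosphorylation genes from 56 lower to 14, while clock genes go from 11 higher to 8. Of all 16955 genes tested, 3128 were higher and 3593 lower with TMM, and 2354 and 2370 with the trend removed.

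Overlap with a gene on the other strand went with more calls and more changes over 4-fold. The median absolute log2 fold change was 0.314 with overlap and 0.301 without. Among overlapping genes 3219 of 7389 passed (43.6%), and 518 changed over 4-fold (7.01%, against 4.86% over all). Among genes with no overlap 3502 of 9566 passed (36.6%), and 306 changed over 4-fold (3.20%). Where the overlapping gene was itself expressed and tested, 2052 of 4459 passed and 10.5% changed over 4-fold, 378 lower and 88 higher. Where it was not, 39.8% passed and 1.77% changed over 4-fold. Genes annotated as antisense RNAs (GENCODE M21) had 314 of 652 called, of which 12.7% were higher, and 194 changed over 4-fold. Their median FPKM in males was 0.779, near the filter of 0.5 in 4 of 16 libraries. Genes that low can pass the filter through 1 condition alone, so the shares over 4-fold are a description and no test. Protein-coding genes with none within 5 kb had 1450 of 4090 called, and 20 of them changed over 4-fold, 15 higher and 5 lower.

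Counts also differed by the way the genes overlap, and so did exonic length. Genes that lie wholly inside a gene on the other strand had 533 of 1022 called, 310 over 4-fold, and a median log2 fold change of -0.40. Genes that hold their partner had 937 of 2247 called, 30 over 4-fold, and 74.5% of their calls were higher. Genes that hold a partner had a median of 6269 exonic bases and genes inside one 945.5. With the length trend removed the holders had 331 higher and 294 lower, and the median of genes inside a partner was -0.15. Overlap of 3' ends gave 47.4% called and 119 over 4-fold, and overlap of 5' ends 37.7% and 59. Expression of the partner and of the gene itself was averaged over the 8 female libraries, which the male comparison does not use for its fold changes. These are of both conditions, and 86.4% of male calls were shared by females. A gene that falls under stress thus also has a lower level there, and the bins are not independent of the change. Where the partner's FPKM was more than 8 times the gene's own, 31.5% of 879 genes changed over 4-fold, 256 lower and 21 higher. Where it was less than an 8th of it, 0.407% of 737 did. The genes themselves differ between these bins, with a median male FPKM of 0.736 and 1694 exonic bases in the first and 19.1 and 4300.0 in the second.

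**Figure D3:**
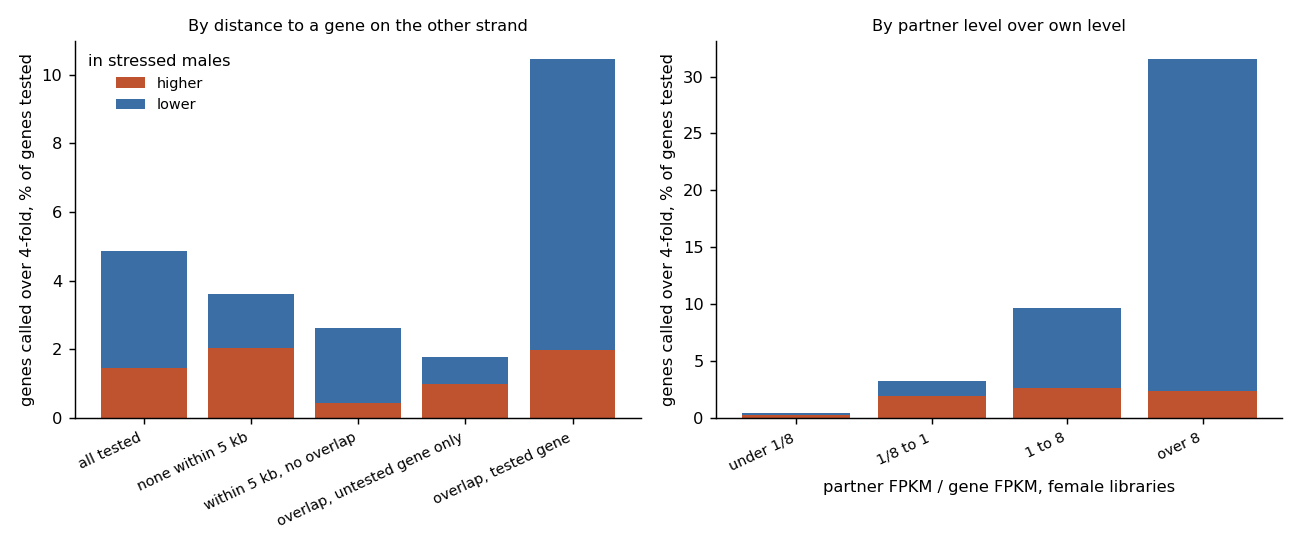
Share of tested autosomal genes called over 4-fold, stacked as higher and lower in stressed males, by position relative to a gene on the other strand (left) and, for genes that overlap a tested gene, by the partner's FPKM over the gene's own FPKM in female libraries (right). The share goes from 0.407% where the partner is much weaker to 31.5% where it is much stronger.

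There were 2531 pairs of tested genes that overlap on opposite strands. Both genes passed in 543 pairs, in opposite directions in 297 (54.7%), both lower in 170 (31.3%) and both higher in 76 (14%). One gene passed in 1270 pairs and neither in 718. In 489 pairs 1 gene changed over 4-fold, and in 20 pairs both did. Of the 4459 genes in these pairs 46.0% passed, 39.8% of those calls were higher, and 10.5% of the genes changed over 4-fold. Pairs of every kind arise from such shares alone, and whether the pairs depart from them was not tested.

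**Figure D4:**
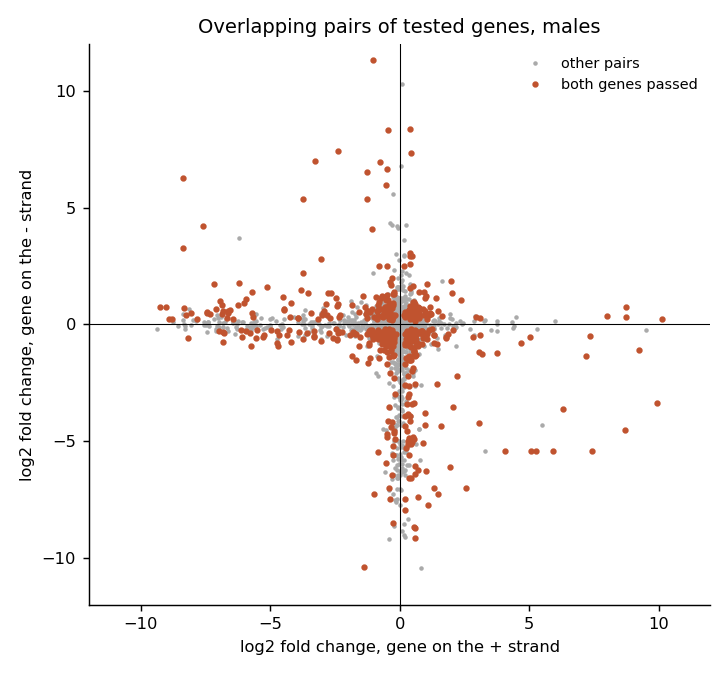
Log2 fold change of the gene on the plus strand against that of the gene on the minus strand for 2531 overlapping pairs of tested genes, with pairs where both passed in colour. Most large changes lie along an axis, 489 pairs with 1 gene over 4-fold against 20 with both. Of all genes in these pairs 10.5% changed over 4-fold.

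Named falls among overlapping protein-coding genes are given here with their partners. They were picked as the largest falls with groups that do not overlap, so a smaller change of the partner follows largely from that choice. Ccdc73 (GRCm39 chromosome 2, 104698150 to 104848249, plus strand) holds Eif3m, a subunit of a translation initiation factor, on the minus strand, with 17425 shared bases. Ccdc73 stood at 16.1, 15.5, 11.4 and 12.5 CPM without stress and at 0.376, 0.364, 0.277 and 0.399 CPM with it, nearly lost from every stressed library (log2 fold change -5.28 ± 0.20, adjusted p = 6.69e-12). Eif3m was at 70.4 ± 4.98 and 60.8 ± 5.40 CPM (-0.20 ± 0.14, adjusted p = 0.253). Fer1l5, of the ferlin family, shares 2240 bases at its 3' end with Lman2l, a lectin of the secretory pathway. It went from 13.1, 17.8, 18.1 and 15.1 CPM to 0.108, 0, 0.0615 and 0.0887 CPM (-7.81 ± 0.42). Lman2l was at 53.5 ± 2.57 and 62.3 ± 6.21 CPM with overlapping groups (0.23 ± 0.08, adjusted p = 0.0336), a call lost without non-stressed library 1, 2 or 3 or stressed library 3 or 4 (0.17 to 0.24).

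Fam221b and Tmem8b lie head to head on chromosome 4, where their spans share 175 bases (GRCm39 43668971 to 43669145). Fam221b stood at 15.2, 17, 16.3 and 16.4 CPM without stress and at 1.18, 1.46, 1.66 and 1.77 CPM with it (-3.38 ± 0.18, adjusted p = 5.57e-10). Tmem8b rose from 61.3, 73.1, 75.0 and 81.1 CPM to 104.1, 95.95, 116.5 and 111.6 CPM (0.57 ± 0.14, adjusted p = 0.00441), so the groups separated for both genes and in opposite directions. The RefSeq starts lie 112 bases apart on GRCm38.p6. The stretch between them is shown on the plus strand, with capitals for the first 20 transcribed bases of each gene, Fam221b on the left and read from the other strand, Tmem8b on the right.
Fam221b and Tmem8b (chr4:43668840-43668990, plus strand): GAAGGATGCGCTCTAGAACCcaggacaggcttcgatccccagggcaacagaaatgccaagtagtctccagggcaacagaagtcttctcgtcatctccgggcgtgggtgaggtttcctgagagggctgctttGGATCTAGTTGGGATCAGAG

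Pkd2l2, a polycystin channel gene, fell by 3.82 ± 0.20 while its 3' neighbour Fam13b rose from a mean of 23.8 ± 1.68 to 65.7 ± 6.03 CPM (1.48 ± 0.25). Tnfrsf18, a receptor of the tumour necrosis factor family, fell by 6.02 ± 0.74 inside the gene Gm16008, which rose by 0.92 ± 0.22. Rps12-ps3 fell by 2.30 ± 0.23 inside Pdzd8, which rose by 0.39 ± 0.07, and Amigo3, an adhesion gene, fell by 2.20 ± 0.24 inside Rnf123, which did not pass (0.38 ± 0.23, adjusted p = 0.195). Cabyr (-2.96 ± 0.21) and Rnls (-2.38 ± 0.29) each hold a gene that was not tested. Rpl23a fell from a mean of 139 ± 8.78 to 32.8 ± 1.85 CPM (-2.07 ± 0.14), and its 3' partner Tlcd1 fell less (-0.37 ± 0.09).

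Rises among overlapping genes were picked by size in the same way. Pdcd2, a chaperone of a ribosomal protein (GRCm39 chromosome 17, 15739470 to 15747563, minus strand), lies inside the span of Tbp, the TATA-binding protein gene. It had 0 counts in all 4 non-stressed libraries and 8.39, 7.33, 7.54 and 6.83 CPM in the stressed ones, at least 172-fold higher when 3 counts are allowed to those 4 libraries together. Tbp was at 33.6 ± 1.18 and 35.1 ± 2.58 CPM (0.07 ± 0.07, adjusted p = 0.39). Pus3, a pseudouridine synthase, went from 0.368, 0.264, 0.205 and 0.225 CPM to 11.02, 10.8, 9.75 and 9.98 CPM (5.29 ± 0.34), while Hyls1, whose 3' end it overlaps, was at 12.1 ± 2.28 and 10.4 ± 0.578 CPM (-0.20 ± 0.13, adjusted p = 0.226). In both pairs 1 gene went from nearly absent to present while the groups of the other overlapped.

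Ilk, the integrin-linked kinase, went from 6.86, 8.05, 8.05 and 7.26 CPM to 65.6, 67.7, 60.4 and 65.5 CPM (3.11 ± 0.22, adjusted p = 1.72e-08). Taf10, a subunit of the general transcription factor TFIID that shares 3533 bases with it, fell (-0.45 ± 0.13). Gnpnat1 (4.24 ± 0.23) rose inside Styx (-0.28 ± 0.15, adjusted p = 0.149), and Rangrf (2.96 ± 0.37) beside Slc25a35 (0.17 ± 0.14, adjusted p = 0.36). Zfp784 (2.92 ± 0.35) rose inside Ccdc106, which rose less (0.42 ± 0.09). Kcna3, a potassium channel gene (3.21 ± 0.49), Hipk2, a kinase gene (2.99 ± 0.38), Smco3 (2.98 ± 0.18) and Pcdhga10, a clustered protocadherin gene (3.29 ± 0.31), have a strongest partner that was not tested. Pcdhga10 also overlaps 25 genes on its own strand, 20 of them tested, so its count depends on how shared reads were assigned.

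Some genes were all but absent from 1 condition. Among genes with a mean of at least 1 CPM in the other male group, 114 had at most 3 counts in total over the 4 stressed libraries and 14 over the 4 non-stressed ones. Of the 114, 87 overlap a gene on the other strand, 19 lie within 5 kb of one and 8 have none, and all 14 of the others overlap one. Among all 16955 genes tested, 7389 overlap one, 3969 lie within 5 kb and 5597 have none. In females of the same condition 101 of the 114 and 14 of the 14 also had at most 3 counts. Genes this low in 1 condition passed the filter mainly through libraries of the other, female ones included. The large folds thus follow from the choice of genes, and these numbers are a description and no test. The cytokine gene Il4, chosen after its values were seen, stood at 20.2, 17.2, 18.3 and 17.3 CPM in non-stressed and at 0 in all stressed libraries, at least 565-fold lower at the same floor. An unnamed gene that overlaps the ribosomal RNA gene Rn18s on the other strand had 1575 counts over the non-stressed and 1 over the stressed libraries. Rn18s itself ran from 915.5 to 2705 CPM without stress and from 481 to 864.5 CPM with it (-1.37 ± 0.40, adjusted p = 0.0119), and the part of ribosomal RNA content in the other results was not tested. Proz, an inhibitor cofactor of blood clotting, had 1068 counts over the non-stressed and 1 over the stressed libraries. Il4 and Proz lie within 5 kb of a gene on the other strand.

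Overlap on the same strand, where counting must choose between genes or drop a read, went with more changes over 4-fold in some classes. Over all tested autosomal genes, 39.1% of those that overlap a tested gene on their own strand passed, against 39.7% of the others. Over 4-fold the shares were 8.65% and 4.37%. Among genes that overlap one on the other strand they ran the other way, 5.69% and 7.14%. Of genes with no other-strand gene within 5 kb, 857 overlap a tested gene on their own strand, and 13% of these changed over 4-fold, 72 higher and 39 lower. Among the 4740 that do not, 1.92% did. Besides Nscme3l and Pcdhga10, the named genes Rpl13a, Rpl23a, Cox7c, Per3, Clock, Bsn, Dlgap2, Tm7sf2, Fdps, Snhg11, Ccdc106, Gm16008 and Gm22079 overlap a tested gene on their own strand. With neither kind of neighbour and no same-strand overlap at all, 3254 protein-coding genes were left, of which 1130 passed (34.7%) and 17 changed over 4-fold, 13 higher and 4 lower.

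Exonic length went with the direction of change over all genes, in overlapping genes and in genes with none within 5 kb, the sets split by length. Genes of over 6 kb had 2120 of 4355 called, 90.0% of them higher, with a median log2 fold change of 0.25. From 4 to 6 kb 54.9% of calls were higher, from 2 to 4 kb 18%, from 1 to 2 kb 13.3% and up to 1 kb 25.7%. Medians in these bins were 0.04, -0.17, -0.38 and -0.37. In genes with none within 5 kb the shares were 90.8%, 58.8%, 22.1%, 20.3% and 36.4%, from long to short. Without that trend 4724 autosomal genes passed, 2354 higher and 2370 lower. Of the genes named here, Zbtb16 (1.62), Chrna7 (2.18), Gabrb2 (1.92), Rpl11 (-1.48), Ndufs5 (-0.92) and Megf11 (-1.61) passed in that fit too. RNA integrity values are not given in the sources used here, so the part of RNA quality in this trend was not tested.

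**Figure D5:**
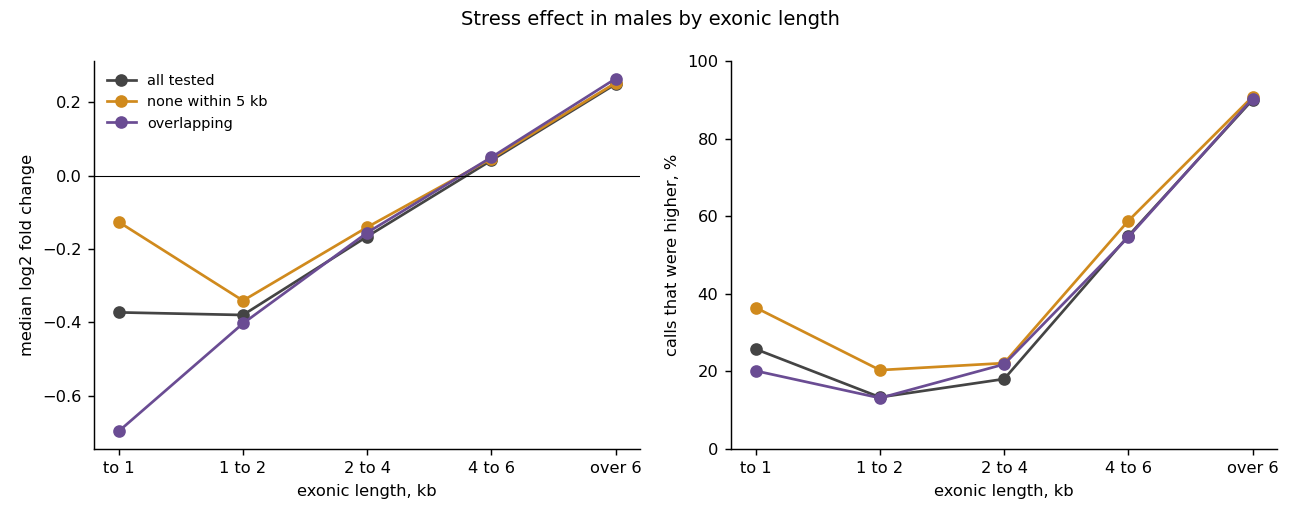
Median log2 fold change (left) and share of called genes that were higher in stressed males (right) by exonic length in kb, for all tested autosomal genes, those with no other-strand gene within 5 kb and those that overlap one. In all 3 sets about 9 in 10 calls over 6 kb were rises.

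The same shift shows in the share of autosomal counts. Genes of over 6 kb took 40.1, 39.4, 39.9 and 41.2% in non-stressed libraries and 47.4, 47.1, 47.3 and 46.6% in stressed ones. Genes of up to 1 kb took 1.58 ± 0.0877% and 0.996 ± 0.0325%. Overlapping genes took 43.1 ± 0.218% and 45.2 ± 0.0999%, and genes with none within 5 kb 31.7 ± 0.243% and 31.0 ± 0.0826% (SD, n = 4). The groups did not overlap for any of the 4 shares (2-sided exact permutation p = 0.0286 each, the smallest that 4 against 4 allow; adjusted p = 0.0286).

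The male change was set beside that of the females, which share no library with it. Both came from 1 fit with the same filter, scaling and estimate of spread, so their calls are not independent. Of the 6721 male calls, 5807 were called in females with the same sign (86.4% of male and 69.5% of 8352 female calls), 0 with the opposite sign, and 6674 had the same sign. The interaction of sex and stress was called at 0 autosomal genes (0.0%) by edgeR, 0 by DESeq2, 0 by limma on FPKM and 1 by limma on TPM. With edgeR 357 of 16955 genes had an unadjusted p under 0.05, fewer than chance alone would give with no interaction. They are thus no sign of a sex difference. Calls of 0 do not show equal responses either, and the spread was widest in non-stressed females (median SD 0.285 on the log2 CPM scale). Genes with the smallest p included Mgp, a matrix protein of vessels and meninges (0.27 ± 0.18 in males, -0.71 in females), Smim3 (0.20 ± 0.13 in males, -0.51 in females) and the low-count gene Gm22079 (-1.57 ± 0.68 and 2.86). None passed (adjusted p = 1). Fos was at -1.08 in males and -0.14 in females, a difference that did not pass either.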

How the data were processed

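The authors deposited, for each gene and library, whole-number counts and FPKM, which was recomputed from the counts to within 0.005. HISAT2 2.0.1, HTSeq 0.6.1 and GRCm39 are named per the submitters' processing notes. Spans, strands and exonic lengths came from that table, biotypes from GENCODE M21, and start-site sequences from RefSeq (GRCm38.p6). A gene entered the test when its FPKM reached 0.5 in 4 or more of the 16 libraries. The test was edgeR 4.0.16 (TMM, quasi-likelihood, 4 group means over all 16 libraries), and log2 fold changes are its estimates. Alternatives used DESeq2 1.42.0 and limma 3.58.1 in R 4.3.3 (log2 of the authors' FPKM plus 0.5), other filters, scalings and library sets, and a spline (5 df) of fold change on length. Scripts were tested on simulated data. Replicates differed by more than counting error (chi-square per df at least 3.15). The gene lists, members and rules were chosen with earlier results of these data known. Named genes were the 15 largest rises and falls with no neighbour within 5 kb, the 10 largest each way among overlapping genes with their partners, up to 4 called members per list, and Nr3c1, Nr3c2, Fkbp5, Sgk1, Bdnf, Crhr1, Fos and Gfap. The largest rises and falls had to be called, protein coding where annotated, not clone-named, separate between groups and at a mean FPKM of 1 or more. The 3 smallest p of the interaction were also named, and Rpl5, Rps16, Ciart, Tef, Nfil3, Il4 and Proz after their values were seen. The split by same-strand overlap was also added after seeing the data. A few genes that the rule names are not reported here. Shares were compared with exact permutation tests. Floors cover counting error alone. Figures used matplotlib 3.10.9.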

Additional observations from a re-analysis of the deposited data

Results flagged for a closer look

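Of 334 groups of 4 libraries looked at, 1 library stood apart from the other 3 by Dixon's test at its 95% critical value in 12, where chance gives about 1 in 20. Among stressed males, Hba-a2 stood at 35.3 CPM in library 2 against 9.94 to 11 in the others. Per3 stood at 82.4 in library 2 against 79.0 to 79.3, and Snhg1 at 11.8 in library 2 against 13.2 to 13.4. Library 4 had Syt10 at 4.08 against 4.68 to 4.77 and Amigo3 at 1.77 against 0.923 to 1.02. Library 1 had Gabrd at 26.1 against 29.1 to 29.7, Ly6a at 9.89 against 11.1 to 11.3, and Proz at 0.0537 (1 count) against 0. H2bc4 stood at 20.9 in library 3 against 23.1 to 23.4. Among non-stressed males, Nr1d2 stood at 91.5 CPM in library 1 against 70.5 to 72.5, Calb1 at 178 in library 1 against 144.6 to 149.7, and Atf6 at 74.2 in library 4 against 61.7 to 62.5.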

How the results depend on the processing

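The count of 6721 autosomal calls was 5668 to 8962 over the other settings run on all libraries or genes, apart from the refit of the 9566 non-overlapping genes alone (3421, fewer genes tested) and the fit with the length trend removed (4724). Leaving out 1 male library at a time gave 5635 to 6264. The fit with a replicate block gave 6675 against 6721. Deviations of same-numbered male libraries had correlations of -0.0208 to 0.0902. Libraries of unlike number were not compared, so whether numbers pair libraries was not settled, and the main fit did not use them. DESeq2 called 7000, median-ratio scaling 6697, no TMM 6802, limma on FPKM 6740, limma on TPM 7788, no filter 7132 and a stricter filter 5668. Overlapping genes called went from 3219 to 2052 when overlap was limited to tested partners, and ranged from 2752 to 3016 without 1 library. Non-overlapping genes called went from 3502 to 2334 with the length trend removed (52.3% higher against 42.3%), to 2010 with a distance of 5 kb counted as overlap, and from 2883 to 3248 without 1 library. The interaction gave 1 call with limma on TPM. The cause of these moves was not tested beyond the fewer genes in the refits.

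Of 167 named genes, 94 kept direction and call under every setting run and 67 lost a call or turned. Most did so with the length trend removed (57 changed) or on the TPM scale (36 changed). With the length trend removed the sign turned for Nr3c2 (-0.0106), Crhr1 (0.22), Ntrk2 (-0.15), Ntrk3 (-0.11), Gria2 (-0.21), Grin3a (-0.0608), Sdf2l1 (0.0038), Meg3 (-0.0816), Nectin3 (-0.16), Cldn11 (0.0359), Eif3m (0.0439) and Tbp (-0.33). On the TPM scale it turned for Crhr1 (0.18), Eif3m (0.0271) and Hyls1 (0.0403). Without 1 male library Crhr1 ran from -0.12 to 0.0193. At 15.2 to 32.5 M counts, values of a few counts per library, such as Fer1l5 under stress, are limited by depth.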
